A study of Oryza sativa with 8 samples.

Results

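Expansins are small secreted proteins of the plant cell wall, and 10 of their loci in rice were followed here: 7 annotated as alpha-expansins and 3 as beta-expansins. They were taken as a list of identifiers from the Michigan State University (MSU) rice annotation, and all 10 were found among the 55986 genes counted. The libraries came from roots of X.kitaake (Xkitaake), a Kitaake rice line transformed with XA21 under the maize ubiquitin promoter and used as the wild type, so digested and intact roots carried the same transgene. Seedlings grew on Yoshida's nutrient solution set with gellan gum, at 28 °C under constant light for 1 to 3 days. Digested roots (4 libraries) had been treated with a cocktail of cell wall-degrading enzymes and were collected as freed protoplasts together with pieces that had not come apart. Intact roots (4 libraries) were frozen straight from the gel. How many seedlings went into a library is not given in the sources used here, nor whether the 4 of a group came from separate cultures, so p-values measure the spread between these libraries, which may be technical.

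Expansins loosen the wall without cutting its polymers: at the acidic pH of a growing wall they let cellulose microfibrils and the matrix between them slip, so that turgor can stretch the cell. Alpha-expansins are best known for acting where cellulose meets xyloglucan. Beta-expansins form a large group in grasses, whose walls hold little xyloglucan and much arabinoxylan, and are known for acting on grass walls. In roots, expansin genes are active in the elongation zone and in growing root hairs. Of the loci followed here, only LOC_Os01g14650 is paired with a gene name in the study's tables used here, OsEXPA8, and it serves there as a marker of atrichoblasts, the root epidermal cells that form no hair. The others are given by identifier.

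In digested roots, all 3 beta-expansins were lower than in intact roots, while the alpha-expansins moved in both directions. The beta-expansin LOC_Os10g40710, the most abundant expansin of intact roots, was 5.04-fold lower in digested roots. The alpha-expansins LOC_Os02g51040 and LOC_Os01g60770 were 4.70-fold and 2.93-fold higher in digested roots, and OsEXPA8 was 2.41-fold higher. Of the other alpha-expansins, LOC_Os05g39990 was 2.65-fold lower in digested roots and 3 did not pass the test. In all, 3 of the 10 expansins were called higher in digested roots and 4 lower, by the quasi-likelihood test of edgeR at an adjusted p under 0.05, where 20% of all 13104 tested genes were called higher and 18.5% lower. Calls of either sign were thus common in this comparison. The median log2 fold change was 0.23 over the 7 alpha-expansins and -1.71 over the 3 beta-expansins, against -0.06 over all tested genes.

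The libraries of the groups differed in depth, which sets how precisely each expansin was measured. Gene counts came to 262709, 471019, 115006 and 150108 in digested replicates 1 to 4, against 2546713, 2333236, 2592970 and 3595349 in intact replicates. Levels are given as CPM, counts per 1000000 counts of the library after TMM scaling, a scaling between libraries that is set by the bulk of genes. A single count was worth 2.46 to 9.29 CPM in digested roots and 0.249 to 0.407 CPM in intact roots. The 10 expansins together had 264, 547, 125 and 165 counts in the digested libraries and 4794, 4925, 5813 and 7449 in the intact libraries. Reads that aligned at more than 1 place were not counted, and they made up 13.0% to 24.3% in digested roots and 3.93% to 5.36% in intact roots. This share moved with the groups, and its part in the values of related genes such as these was not tested. Because the library method reads 1 tag from the 3′ end of a transcript, CPM can be set side by side between genes without correction for length. In RNA from whole tissue, fewer cells of a type and less RNA of a gene per cell cannot be told apart.

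**Figure D1:**
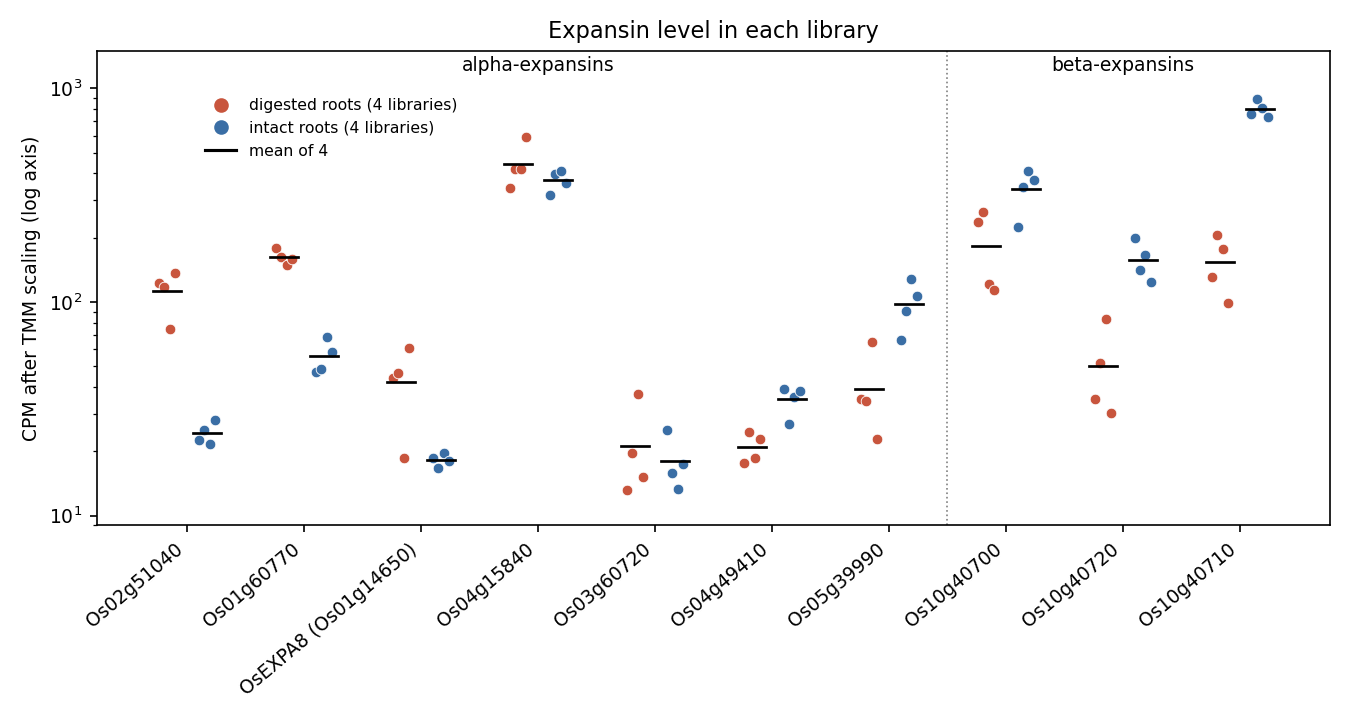
Level of each of the 10 expansins in the 4 digested (red) and 4 intact (blue) libraries, in CPM after TMM scaling on a log axis, with the mean of 4 as a bar. In LOC_Os02g51040 and LOC_Os01g60770 all 4 red points lie above the blue ones, and in LOC_Os05g39990, LOC_Os04g49410, LOC_Os10g40720 and LOC_Os10g40710 all 4 lie below them.

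The lowest pair of fold changes among the 10 expansins belonged to beta-expansins. LOC_Os10g40710 had 132, 206, 177 and 98.5 CPM in digested roots, against 762, 894, 812 and 731 CPM in intact roots. Every digested library lay far below every intact one. The log2 fold change was -2.33 (SE 0.20, edgeR adjusted p = 1.28e-10), on 146 counts over the digested libraries and 9512 over the intact ones. In intact roots its level stood at the 99.2nd percentile of all tested genes, and in digested roots at the 87.9th. Each library was left out in turn, the scaling was changed and other tests were run, and over all of these its log2 fold change stayed between -2.75 and -2.29.

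LOC_Os10g40720, whose identifier follows directly on that of LOC_Os10g40710, had 35.1, 51.6, 83.6 and 30.3 CPM in digested roots, against 200, 142, 166 and 124 CPM in intact roots. The highest digested library lay below the lowest intact one, and digested replicate 3, which stood highest, rested on 9 counts. Its log2 fold change was -1.71 (SE 0.28, edgeR adjusted p = 1.07e-05).

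LOC_Os10g40700, the remaining beta-expansin and the neighbour of LOC_Os10g40710 by identifier, had 237, 263, 121 and 114 CPM in digested roots, against 225, 346, 408 and 373 CPM in intact roots. Digested replicates 1 and 2 lay within the range of the intact libraries, whereas digested replicates 3 and 4 lay below it. This gave a log2 fold change of -0.77 (SE 0.24, edgeR adjusted p = 0.0141). Under limma-voom it was -0.75 and missed the threshold (adjusted p = 0.0555).

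The 3 beta-expansins therefore did not keep 1 ratio between the groups. Within each library, counts of LOC_Os10g40710 divided by those of LOC_Os10g40700 gave 0.556, 0.785, 1.46 and 0.867 in digested roots, against 3.38, 2.59, 1.99 and 1.96 in intact roots. LOC_Os10g40710 was thus the more abundant of the pair in every intact library and in 1 of the 4 digested libraries, and the ranges did not overlap. In digested replicates 3 and 4 the counts were 19 over 13 and 13 over 15, too few to say which gene led. The ratio needs no scaling between libraries. For LOC_Os10g40720 over LOC_Os10g40700 the same ratio was 0.148, 0.196, 0.692 and 0.267 in digested roots, against 0.888, 0.409, 0.406 and 0.331 in intact roots. Here the ranges overlapped through digested replicate 3.

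The alpha-expansins LOC_Os02g51040, LOC_Os01g60770 and OsEXPA8, called higher in digested roots, had levels in intact roots at percentiles 46.9, 73.5 and 36.1 of all tested genes. LOC_Os02g51040 had 123, 118, 74.3 and 136 CPM in digested roots, against 22.7, 25.2, 21.5 and 28.2 CPM in intact roots. All digested libraries stood well above all intact ones, replicate 3 being the lowest of the digested libraries with 8 counts. The log2 fold change was 2.23 (SE 0.24, edgeR adjusted p = 9.99e-09), larger than that of 91.9% of all tested genes, and ranged from 1.92 to 2.25 over the other settings.

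LOC_Os01g60770 had 180, 162, 149 and 159 CPM in digested roots, against 47.1, 48.8, 68.5 and 58.6 CPM in intact roots. The digested libraries were close to each other, with a coefficient of variation of 7.95%, the lowest of the 10 expansins in that group, and did not overlap with the intact libraries. It rose with a log2 fold change of 1.55 (SE 0.21, edgeR adjusted p = 7.83e-07). With LOC_Os02g51040, it was the most alike pair among the expansins by the shape of their levels over the 8 libraries. This likeness takes in the difference between the groups, which had the same sign in both genes.

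OsEXPA8 had 43.8, 46.7, 18.6 and 60.6 CPM in digested roots, against 18.7, 16.7, 19.7 and 17.9 CPM in intact roots. Digested replicates 1, 2 and 4 stood above every intact library, and digested replicate 3, with 2 counts, lay among them. OsEXPA8 was called higher, at a log2 fold change of 1.27 (SE 0.31, edgeR adjusted p = 0.00179). Without digested replicate 2, which held 19 of its 39 digested counts, the log2 fold change was 1.05 and the call was lost (adjusted p = 0.0514).

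LOC_Os05g39990 was the alpha-expansin that fell. It had 35.1, 34.4, 65.1 and 22.7 CPM in digested roots, against 66.2, 90.3, 129 and 107 CPM in intact roots. The groups did not overlap, though digested replicate 3, at 7 counts, came close to intact replicate 1. At a log2 fold change of -1.41 it passed the test (SE 0.31, edgeR adjusted p = 0.000608). Its 32 digested counts allowed a log2 ratio of summed counts between -1.99 and -0.93 (95% exact binomial interval, which like the others covers counting error only). Its levels over the 8 libraries, the difference between the groups included, were more like those of the beta-expansin LOC_Os10g40720 than those of any other expansin.

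Of the 3 alpha-expansins that did not pass the test, LOC_Os04g15840 was by far the most abundant. It had 342, 418, 418 and 591 CPM in digested roots, against 318, 398, 412 and 361 CPM in intact roots. The groups overlapped, with digested replicate 4 above the rest. Its log2 fold change was 0.23 (SE 0.18, edgeR adjusted p = 0.332), and its sign turned to -0.07 when libraries were scaled by total counts and to -0.03 without digested replicate 4. On 371 digested counts, the 95% exact binomial interval of the log2 ratio of summed counts ran from 0.04 to 0.35. It stood at the 96.6th percentile of tested genes by level in digested roots and at the 96.8th in intact roots.

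LOC_Os04g49410 had 17.5, 24.6, 18.6 and 22.7 CPM in digested roots, against 39.2, 26.8, 35.9 and 38.4 CPM in intact roots. Every digested library lay below every intact one, but the digested libraries held 2 to 10 counts each. The log2 fold change of -0.70 (SE 0.35) did not pass the test (edgeR adjusted p = 0.112). It did pass with total counts as the scaling (-1.02, adjusted p = 0.0174) and with upper-quartile scaling (-0.98, adjusted p = 0.0219). Those scalings moved genes at large downward too, shifting the median over the tested set by -0.31 and -0.27. They gave 3722 and 3507 genes called lower, against 2430 under TMM, so these passes do not set LOC_Os04g49410 apart. It also passed without intact replicate 2 (-0.86, adjusted p = 0.0429).

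LOC_Os03g60720, the least abundant expansin of intact roots, had 13.2, 19.7, 37.2 and 15.1 CPM in digested roots, against 25.2, 15.9, 13.3 and 17.5 CPM in intact roots. The groups overlapped, with digested replicate 3, at 4 counts, above the rest. With 17 counts over the digested libraries, the 95% exact binomial interval of its log2 ratio of summed counts ran from -0.69 to 0.83, which leaves out the further spread between replicates. The fitted log2 fold change was 0.12 (SE 0.42, edgeR adjusted p = 0.851), and its sign depended on the setting.

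Counted by library rather than by test, 2 expansins had every digested library above every intact one, where 17.4% of all tested genes did, and 4 had every digested library below, where 19.8% did. The 4 that overlapped were LOC_Os04g15840, LOC_Os03g60720, OsEXPA8 and LOC_Os10g40700, the last of which no longer overlapped under total-count or upper-quartile scaling. Agreement within groups differed as well. Coefficients of variation ran from 7.95% to 51.4% over the expansins in digested roots and from 7.04% to 28.5% in intact roots.

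**Figure D2:**
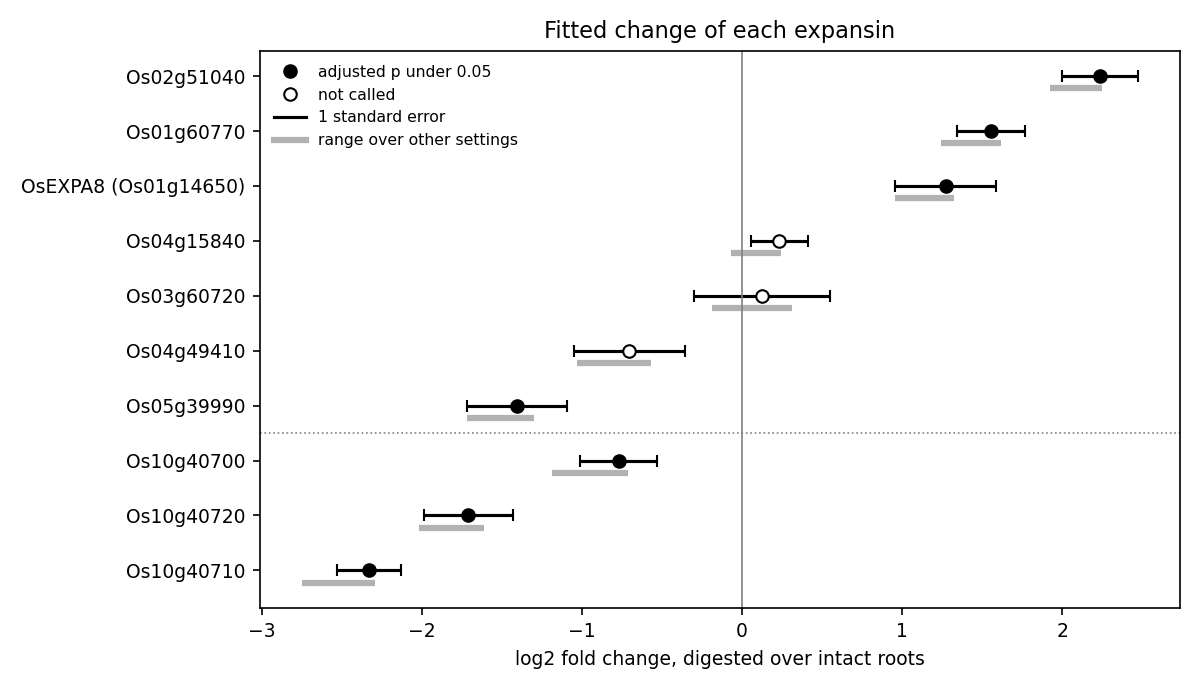
Fitted log2 fold change of each expansin, digested over intact roots, with 1 standard error (thin bars) and the range over the other settings (grey bars), alpha-expansins above the dotted line and beta-expansins below it. Filled points have an adjusted p under 0.05: 3 alpha-expansins lie right of 0, and 1 alpha-expansin and the 3 beta-expansins lie left of it. The grey bars cross 0 for LOC_Os04g15840 and LOC_Os03g60720 alone.

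With these opposite movements, the make-up of the expansin transcripts differed between the groups. Summed over the 7 alpha-expansins, levels were 754, 823, 781 and 1007 CPM in digested roots, against 537, 622, 700 and 629 CPM in intact roots. Summed over the 3 beta-expansins, they were 403, 521, 381 and 242 CPM in digested roots, against 1187, 1382, 1386 and 1228 CPM in intact roots. The beta sum was higher in intact roots without overlap, and stayed so under each other scaling. The alpha sum was the higher one in digested roots, and there the separation rested on TMM: under RLE, total-count and upper-quartile scaling the groups overlapped, and with total counts the alpha sum was 758 ± 99.3 CPM in digested roots, against 689 ± 72.4 CPM in intact roots (mean ± SD of 4 libraries). All 10 together averaged 1228 ± 88.4 CPM in digested roots, against 1917 ± 160 CPM in intact roots (mean ± SD of 4 libraries), with no overlap. No test was run on these sums, since the list was chosen with results of these data known.

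As shares of the expansin total, beta-expansins made up 31.4% ± 8.41 in digested roots, against 67.6% ± 1.53 in intact roots (mean ± SD of 4 libraries). LOC_Os10g40710 alone took 12.4% ± 3.56 in digested roots and 41.8% ± 3.06 in intact roots. The alpha-expansin LOC_Os04g15840, whose own level was not called changed, took 36.0% ± 8.02 in digested roots and 19.4% ± 0.647 in intact roots. Its larger share went with the smaller total and with a mean level of 442 CPM in digested roots, against 372 CPM in intact roots. Without LOC_Os10g40710, the other beta-expansins still summed to 234 ± 75.1 CPM in digested roots and 496 ± 61.1 CPM in intact roots, and these ranges did not overlap either.

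**Figure D3:**
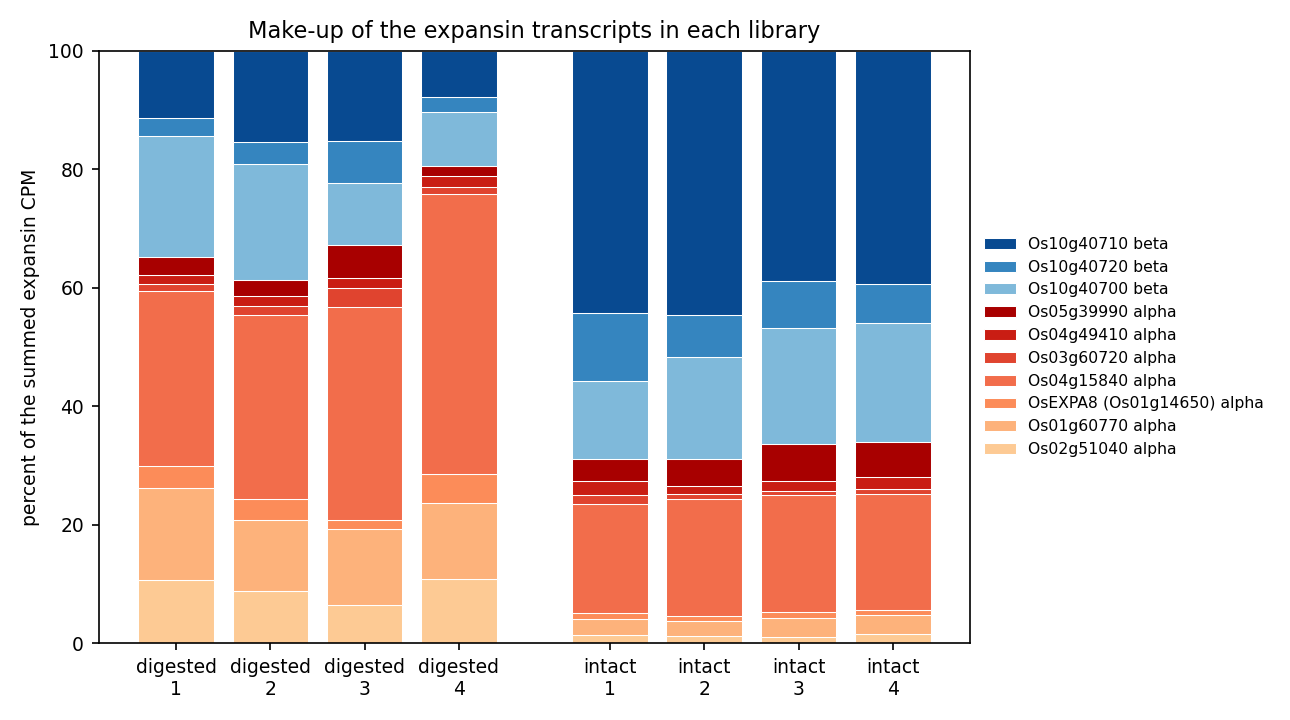
Make-up of the expansin transcripts in each of the 4 digested and 4 intact libraries, each bar adding up to 100% of the summed CPM of the 10 expansins, with alpha-expansins in red tones and beta-expansins in blue. The blue part averages 31.4% in the digested libraries and 67.6% in the intact ones. LOC_Os10g40710, the darkest blue, averages 12.4% in the digested libraries and 41.8% in the intact ones.

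The order of levels changed accordingly. In digested roots LOC_Os04g15840 stood first, apart from the next expansin, LOC_Os10g40700, and then came LOC_Os01g60770, LOC_Os10g40710, LOC_Os02g51040, LOC_Os10g40720, OsEXPA8, LOC_Os05g39990, LOC_Os03g60720 and LOC_Os04g49410. From LOC_Os10g40700 on, each expansin overlapped in range with the next. In intact roots LOC_Os10g40710 stood first, apart from LOC_Os04g15840, which overlapped with LOC_Os10g40700. Then came LOC_Os10g40720, below LOC_Os10g40700 without overlap, and LOC_Os05g39990 and LOC_Os01g60770, each overlapping with the one before. LOC_Os04g49410 lay below these without overlap and overlapped with LOC_Os02g51040, under which OsEXPA8 lay without overlap and overlapped with LOC_Os03g60720. Of the 9 neighbouring pairs in each order, 1 was apart in digested roots and 4 were apart in intact roots. LOC_Os01g60770 and LOC_Os02g51040 thus held ranks 3 and 5 in digested roots, against ranks 6 and 8 in intact roots.

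Other cell wall genes, from the study's lists, were set beside the expansins. Of 17 genes for cellulose and hemicellulose synthases, 13 could be tested, of which 0 were called higher in digested roots, 10 lower and 3 neither way by edgeR. Over all tested genes, 20% were called higher and 18.5% lower. At an unadjusted p under 0.05, by DESeq2 and by limma-voom, 0 of the synthases were higher as well. Their median log2 fold change was -1.18, between those of the beta-expansins and of the alpha-expansins, and their summed level was 1295 to 1556 CPM in digested roots and 2591 to 2972 CPM in intact roots. The 3 largest changes among those called were in CSLC2, whose family makes the glucan backbone of xyloglucan, and in CESA5 and CESA4, both cellulose synthase subunits.

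CSLC2 had 0, 14.7, 9.29 and 0 CPM in digested roots, against 20.9, 32.1, 35.5 and 30.7 CPM in intact roots (log2 fold change -1.91, SE 0.54, edgeR adjusted p = 0.00534), on 7 counts over the digested libraries. CESA5 had 30.7, 24.6, 46.5 and 22.7 CPM in digested roots, against 119, 92.7, 96.9 and 92.2 CPM in intact roots (log2 fold change -1.79, SE 0.29, edgeR adjusted p = 1.13e-05). CESA4, which acts in the secondary wall and which the study also uses as a xylem marker, had 35.1, 61.4, 55.8 and 53.0 CPM in digested roots, against 206, 172, 185 and 141 CPM in intact roots (log2 fold change -1.76, SE 0.25, edgeR adjusted p = 1.37e-06). In none of these 3 genes did the groups overlap. Every digested library lay below every intact one in 19.8% of all tested genes.

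Of 10 genes listed for xyloglucan, 2 had enough counts to be tested, 6 had no count in any digested library and 1 had none in any intact library. The 1 that was called, LOC_Os03g05060, is annotated in the study as a homolog of KATAMARI1, the Arabidopsis gene for a galactosyltransferase that decorates xyloglucan. LOC_Os03g05060 was lower in digested roots. It had 0, 7.37, 0 and 0 CPM in digested roots, against 28.8, 24, 21.5 and 27.9 CPM in intact roots (edgeR adjusted p = 0.000479). Its 3 digested counts all came from replicate 2 and gave a log2 ratio of summed counts of -2.91, with a 95% exact binomial interval from -5.20 to -1.35. The list as a whole was thus too thinly covered in digested roots to set against the alpha-expansins.

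**Figure D4:**
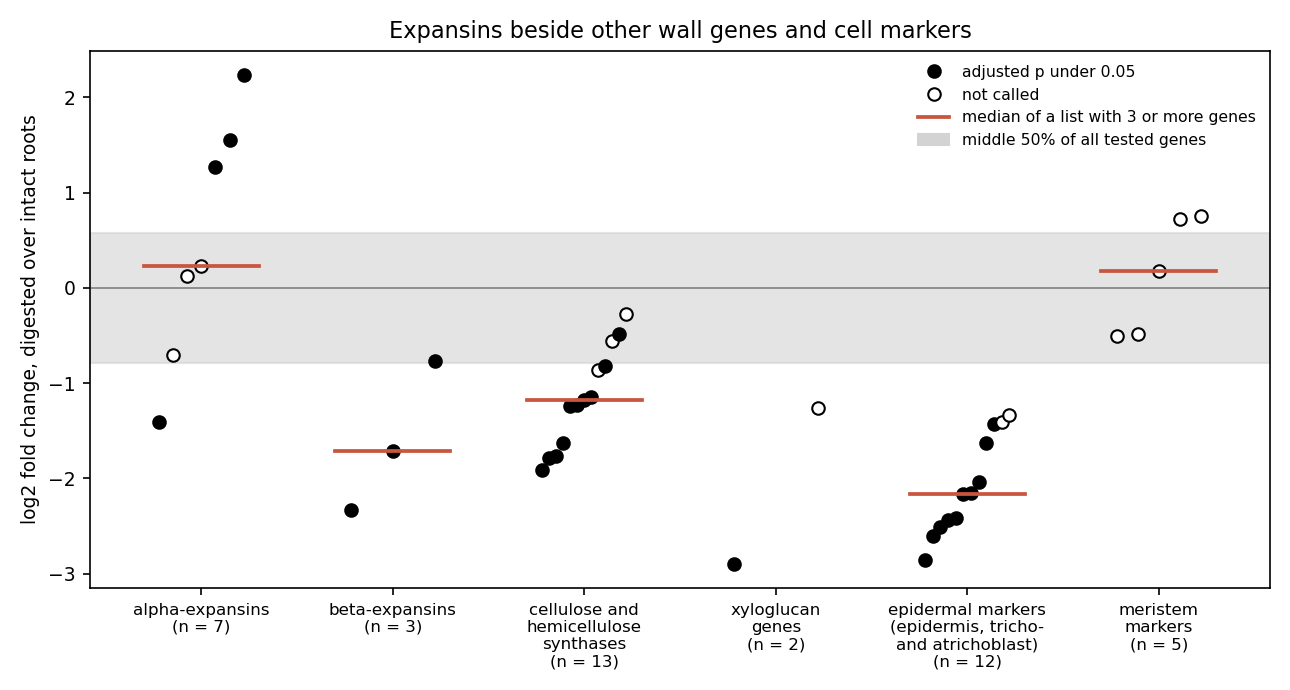
Log2 fold change, digested over intact roots, of each tested alpha-expansin, beta-expansin, cellulose or hemicellulose synthase, xyloglucan gene, epidermal marker (OsEXPA8 left out) and meristem marker. Filled points have an adjusted p under 0.05, red lines are medians of lists with 3 or more genes and the grey band holds the middle 50% of all tested genes. The synthases, at a median of -1.18, and the epidermal markers, at -2.16, lie below 0, where the alpha-expansins spread on both sides. CSLD1 belongs to both of these lists and is drawn in each.

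Markers of root cell types moved with the groups too. Of 58 markers in the study's table, 47 could be tested, and OsEXPA8 was the 1 called higher in digested roots, with 28 called lower and 18 neither way. Over all tested genes, 20% were called higher and 18.5% lower. The summed level of the 58 markers was 1727 to 2158 CPM in digested roots and 3820 to 4197 CPM in intact roots, and 6 of them had no count in any digested library, against 0 in intact roots. These 6 held only 2 to 53 counts over the deeper intact libraries, and for 5 of them the 95% exact binomial interval of the log2 ratio of summed counts reached above 0, so the zeros of those 5 do not set the groups apart. Every marker list had counts in both groups, although the 4 phloem markers were too low to test.

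OsEXPA8 thus parted from the other atrichoblast markers, although its groups overlapped and its call was lost without digested replicate 2. NRT2.3, a nitrate transporter gene, had 0, 9.83, 9.29 and 0 CPM in digested roots, against 28.1, 23.2, 30.9 and 20.9 CPM in intact roots (log2 fold change -2.17, SE 0.57, edgeR adjusted p = 0.00300). OsSultr1, a sulfate transporter gene, had 0, 9.83, 0 and 0 CPM in digested roots, against 29.1, 26, 16.1 and 11 CPM in intact roots (log2 fold change -2.16, SE 0.75, edgeR adjusted p = 0.0249). The remaining one, Os01g0868600, had a log2 fold change of -1.41 (SE 0.66, edgeR adjusted p = 0.0949). These markers rest on 4 to 6 counts each over the digested libraries and were named after their values were seen.

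Of the 11 markers of trichoblasts, the hair-forming epidermal cells, 8 were tested and 7 were called lower, and their sum was 83.3 to 195 CPM in digested roots and 496 to 659 CPM in intact roots. Of the 8 xylem markers 6 were called lower, as were all 4 of the tested vascular markers and 3 of the 5 tested cortex markers. The xylem markers CESA4, CESA7 and BC6 (CESA9) and the trichoblast marker CSLD1 also belong to the synthase list. Their calls, all lower, are therefore counted in both places. Of the 3 sclerenchyma markers 2 were called lower. Calls were fewer in other lists, with 1 of 2 root cap markers and 1 of 2 tested exodermis markers lower. Among the 5 endodermis markers 1 was called lower, at a median log2 fold change of -0.42. Of the 5 meristem markers, 0 were called in either direction by edgeR, DESeq2 or limma-voom and 1 was higher at an unadjusted edgeR p under 0.05, at a sum of 270 to 427 CPM in digested roots and 283 to 397 CPM in intact roots. The part of these shifts in the levels of the expansins was not tested.

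Among the 57 tested genes of the wall and marker lists, those with a pattern most like that of the leading expansins were found by the root mean square difference of log2(CPM + 1) over the 8 libraries, each gene centred on its mean. For the alpha-expansin LOC_Os04g15840 they were the xylem marker Os01g0971400 (difference 0.286) and the meristem marker OsPCNA, the replication clamp (0.295). Os01g0971400 had a log2 fold change of -0.09 (SE 0.32) and was not called (edgeR adjusted p = 0.857). In this it differed from most xylem markers, 6 of 8 of which were called lower. OsPCNA had a log2 fold change of 0.18 (SE 0.24) and was not called (edgeR adjusted p = 0.611). For the beta-expansin LOC_Os10g40710 they were the vascular marker Os01g0803300 (0.352) and the cortex marker OsABCG14 (0.357). Both had log2 fold changes close to the -2.33 of LOC_Os10g40710, at -2.41 (SE 0.33) and -2.19 (SE 0.40). The measure runs over both groups and so takes in the difference between them.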

How the data were processed

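RNA of 4 digested and 4 intact root samples was made into QuantSeq 3′ libraries carrying unique molecular identifiers. Alignment by the authors was to the MSU rice genome, release 7, and HTSeq gave reads per gene. The deposited values are these raw whole counts. The submitters' processing notes also list STAR, UMI-tools and edgeR, with no versions. Groups and replicate numbers came from the sample labels. The 5 HTSeq summary rows entered neither library sizes nor tests. Reads outside genes were 13.4% to 14.9% in digested and 13.0% to 13.9% in intact libraries, and reads not aligned uniquely are given above.

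All genes were fitted together with edgeR 4.0.16 in R 4.3.3, on condition alone, digested over intact. Low counts were filtered with filterByExpr, libraries scaled by TMM, and the robust quasi-likelihood F test (glmQLFTest) was run with a prior count of 0.125. Adjusted p-values are Benjamini-Hochberg values over all 13104 genes tested. The SE was taken as the size of the log2 fold change over the root of F. Replicates of a group differed beyond sampling noise (chi-square of 1.99 to 8.43 for each degree of freedom) and were each counted as 1 sample. The alternatives were RLE, total-count and upper-quartile scaling, no filter, a threshold of 0.01, a prior count of 2, a replicate block, DESeq2 1.42.0, limma-voom (limma 3.58.1) and each library left out in turn. The procedure was also run on simulated data in which few genes changed, a setting that cannot check the choice of scaling.

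The expansins and the other lists were chosen with earlier results of these data known. All 10 expansins are named, with the 3 largest called changes of each wall list and the 2 listed genes most like the leading alpha- and beta-expansin. Markers are named only where a whole list moved 1 way or a defining marker was at 0. The atrichoblast markers and the markers shared with the synthase list are exceptions. No gene name other than OsEXPA8 was matched to an expansin identifier, and coordinates and sequences are not used here.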

Additional observations from a re-analysis of the deposited data

How the results depend on the processing

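Over the alternatives, 2 to 3 expansins were called higher in digested roots and 3 to 5 lower, and with the replicate block 3 and 4 were. Replicate numbers gave no sign of pairing between samples (correlations of deviations -0.30, 0.06, -0.11 and -0.06 for replicates 1 to 4). With the low digested counts, this check could miss a pairing. The block changed no call of an expansin. Against the fit reported, the median log2 fold change of all genes shifted by -0.14 with RLE, -0.31 with total counts and -0.27 with upper-quartile scaling, and the calls, 2618 higher and 2430 lower, became 2048 and 3722 with total counts and 2096 and 3507 with the upper quartile. With 0.01 as the threshold, 1611 were lower. LOC_Os04g15840 turned to -0.071 with total counts, -0.016 with the upper quartile and -0.029 without digested replicate 4. LOC_Os03g60720 turned to -0.013 with RLE, -0.19 with total counts, -0.15 with the upper quartile, -0.0027 with no filter, -0.0069 with DESeq2, -0.045 without digested replicate 2 and -0.17 without digested replicate 3, and was not tested when an intact library was left out. With single libraries left out they ran from -0.029 to 0.24 and from -0.17 to 0.21. Neither was called in any fit, and the cause was not tested.

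With total counts the mean alpha sum was 758 CPM in digested and 689 CPM in intact roots, and with the upper quartile 776 CPM and 677 CPM, with overlap in both. With total counts the beta sum was 1435 CPM in intact roots, and the sums were 1107 CPM in digested and 2125 CPM in intact roots for all 10. With the upper quartile the beta sum in intact roots was 1409 CPM, and all 10 gave 1129 CPM in digested and 2086 CPM in intact roots. With single libraries left out, the filter and the scaling were run anew each time. The beta sum in intact roots was then 1333 to 1418 CPM, always above the 1296 CPM of the fit reported. The sum of all 10 in digested roots was 1120 to 1242 CPM, and 1 to 2 xyloglucan genes were lower. Of the results examined for 1 library far from the other 3 of its group, 0 of 26 passed Dixon's ratio. Digested counts of 2 to 170 per expansin and library limit what could be seen.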
